A study of Mus musculus with 24 samples.

Results

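Bone marrow-derived macrophages (BMDM) of C57BL/6 mice were compared after 1 h of Kdo2 lipid A (KLA) and after 1 h of its solvent DMSO. The 4 samples, 2 per treatment, were chosen by their labels from the 24 of the series, and no measured value entered the choice. All were labelled C57BL/6, with no transgene or deletion named. The cells had been grown out of bone marrow with L-cell conditioned medium, a source of M-CSF, and replated overnight with M-CSF before treatment, and the age of the mice and any pooling were not given in the sources used here. RNA was hybridised to Agilent 2-colour whole genome arrays. Each array carried 1 condition, with 1 biological replicate in the Cy5 channel and the other in the Cy3 channel, so that an array and its condition cannot be told apart and the spread between channels leaves out differences between arrays. The labels call the 2 channels biological replicates but do not say whether they came from separate cultures or mice. The p-values measure only the spread between the 2 channels of an array, estimated over all 24 channels of the series. For comparison the text also uses BMDM treated with KLA or DMSO for 12 h, on the same slide, and C57BL/6 thioglycollate-elicited peritoneal macrophages (EPM) treated with KLA for 1 h or left untreated, on another slide, each with 2 channels on 1 array. The estimate of the spread also took in EPM treated with KLA or DMSO for 12 h. It further took in B cells that were untreated, treated with KLA for 1 h, or treated with KLA or DMSO for 12 h.

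KLA is the Kdo2-carrying lipid A part of endotoxin and binds Toll-like receptor 4 (TLR4) with its co-receptors MD-2 and CD14. TLR4 signals through MyD88 and TRIF to the kinases that free NF-kappaB, activate AP-1 and other MAP kinase targets, and phosphorylate IRF3. In macrophages the first wave of transcription that follows encodes cytokines, chemokines, transcription factors and inhibitors of the pathway itself, and secreted interferon beta then drives a second wave through its own receptor.

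The promoters of 4 of the 20 genes with the largest increases are shown because they hold a TATA box or an NF-kappaB motif and rank highest among those that do and have a single promoter window. The sequences are from RefSeq (GRCm38.p6), 250 bases before each annotated transcription start, written 5′ to 3′ on the strand of the gene, with capitals marking every match to the motifs searched. These are the promoters of Ifnb1 (interferon beta, minus strand, chr4:88522795-88523044), Cxcl10 (minus strand, chr5:92348890-92349139), Cxcl1 (plus strand, chr5:90890995-90891244) and Il6 (plus strand, chr5:30012864-30013113):
Ifnb1: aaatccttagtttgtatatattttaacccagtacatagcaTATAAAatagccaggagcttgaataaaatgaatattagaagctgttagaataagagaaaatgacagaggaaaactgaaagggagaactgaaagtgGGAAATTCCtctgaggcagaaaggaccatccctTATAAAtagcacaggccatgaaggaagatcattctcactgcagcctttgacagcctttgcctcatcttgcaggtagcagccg
Cxcl10: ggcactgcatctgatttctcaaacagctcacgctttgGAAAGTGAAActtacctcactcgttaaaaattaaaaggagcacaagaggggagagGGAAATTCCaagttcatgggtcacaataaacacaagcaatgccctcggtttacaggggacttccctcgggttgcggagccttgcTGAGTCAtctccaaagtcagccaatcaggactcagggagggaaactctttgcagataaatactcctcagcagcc
Cxcl1: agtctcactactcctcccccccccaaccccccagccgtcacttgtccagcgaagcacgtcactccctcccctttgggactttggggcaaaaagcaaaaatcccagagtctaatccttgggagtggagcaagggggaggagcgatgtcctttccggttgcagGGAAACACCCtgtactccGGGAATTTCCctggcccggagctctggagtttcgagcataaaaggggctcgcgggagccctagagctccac
Il6: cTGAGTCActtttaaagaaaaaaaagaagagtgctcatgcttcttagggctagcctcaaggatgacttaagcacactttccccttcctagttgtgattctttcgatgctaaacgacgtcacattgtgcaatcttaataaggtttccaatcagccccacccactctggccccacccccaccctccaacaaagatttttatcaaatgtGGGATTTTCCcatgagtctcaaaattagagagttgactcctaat
The motifs searched were the TATA box TATAAA on the strand of the gene and, on both strands, a 10-base form of the NF-kappaB site (GGG and TTTCC with any 2 bases between), a 9-base form (GGAAATTCC), the AP-1 site TGACTCA, the cyclic AMP response element TGACGTCA and the core of the interferon-stimulated response element (GAAA repeated after any 2 bases), and matches of the 2 NF-kappaB forms may overlap. In the Ifnb1 promoter the 9-base NF-kappaB form began at -115 relative to the start. Matches to TATAAA began at -210 and -82, neither within 20 to 40 bases before the start. The Cxcl10 promoter held an interferon response core at -213, the 9-base NF-kappaB form at -158 and an AP-1 site at -74. In Cxcl1, 10-base NF-kappaB matches began at -89 and -71, the latter overlapping a 9-base match at -70. Il6 held an AP-1 site at -249 and the 10-base NF-kappaB form at -44. A window from 250 bases before to 50 after the start was held for 210 of the 275 genes over 2-fold higher after KLA (1.60% of genes tested, limma adjusted p under 0.05), for 70 of the 96 over 4-fold higher, for 58 of the 72 over 2-fold lower (0.419%) and for 12885 of all 17193 genes tested. Either NF-kappaB form was in 10% of the windows of genes over 2-fold higher and 18.6% of those over 4-fold higher, against 1.72% of those over 2-fold lower and 2.19% of all windows. TATAAA was in 14.3%, 22.9%, 5.17% and 7.46% of these same sets in turn. Matches that began 20 to 40 bases before the start were in 6.67%, 12.9%, 1.72% and 2.4%, so many of the former lay elsewhere in the window. The interferon response core was in 11.4% and 14.3% of the windows of genes over 2-fold and over 4-fold higher and in 3.84% of all windows. These shares describe letters in the windows and say nothing of binding.

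In the 4 channels 59.5% to 61.2% of probes were well above background, and no spot was saturated. All 10 macrophage markers were well above background in every channel, and their summed normalized intensity (linear scale) was 581430 to 632230 in the DMSO channels and 608653 to 638755 in the KLA channels. Markers of neutrophils and their precursors were also present, with a sum of 16792 to 17525 under DMSO and 23625 to 27406 under KLA. Of the 13 neutrophil markers tested, 7 were higher after KLA by the limma test, beside 11.0% of all genes, none over 2-fold, with a median log2 change of 0.35, and S100a8, for example, rose by 0.61. The primary granule genes Mpo, Prtn3, Elane and Ctsg had log2 changes of 0.20, -0.003, -0.01 and 0.05 and did not pass. B cell markers summed to 27060 to 27729 under DMSO and 25064 to 25120 under KLA, with Pax5, Ebf1 and Fcrla not well above background in any channel. T and NK cell markers summed to 1421 to 1469 and 1517 to 1539, with 4 of 11 not well above background in any channel, and erythroid markers to 738 to 739 and 759 to 767 with no call. Fibroblast markers summed to 4919 to 5052 and 5969 to 6357, with Col1a1, Col1a2 and Dcn higher by 0.29, 0.41 and 0.30 on the log2 scale. Against the DMSO array of 12 h, described further on, Col1a1 and Col1a2 turned to -0.29 and -0.19, and none of these 3 was called where array means were the samples. The part of these cells in the results was not tested, and in bulk RNA a change in the number of cells of a type cannot be told apart from a change in RNA per cell.

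After 1 h of KLA, 1887 of 17193 genes (11.0%) were higher and 3034 (17.6%) were lower (limma, Benjamini-Hochberg adjusted p under 0.05), and such genes are called changed here. Of all calls 38.3% were higher, and of calls of more than 2-fold 79.3%, 275 genes (1.60%) higher and 72 (0.419%) lower. That second split depended on how background was removed: the processed signal gave 674 higher and 502 lower over 2-fold, 57.3% higher, and an offset of 16 gave 351 and 158, 69% higher. With the offset of 50 used throughout, 96 genes rose and 4 fell over 4-fold, 43 rose and 1 fell over 8-fold, and 18 rose over 16-fold. In the values normalized by the authors, 1978 genes were called higher and 1915 lower, 50.8% higher. The channels of KLA and DMSO did not overlap for 272 of the 275 and for 72 of the 72. These genes were chosen by fold and by a test on the same channels, so this adds no separate support. The share over all genes was not counted. Of the 275, 29 were not well above background in either DMSO channel, and of the 72, 18 were not in either KLA channel, so that their folds are lower bounds ("at least"), computed against the lowest signal well above background or the gene's own value where that was higher.

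**Figure D1:**
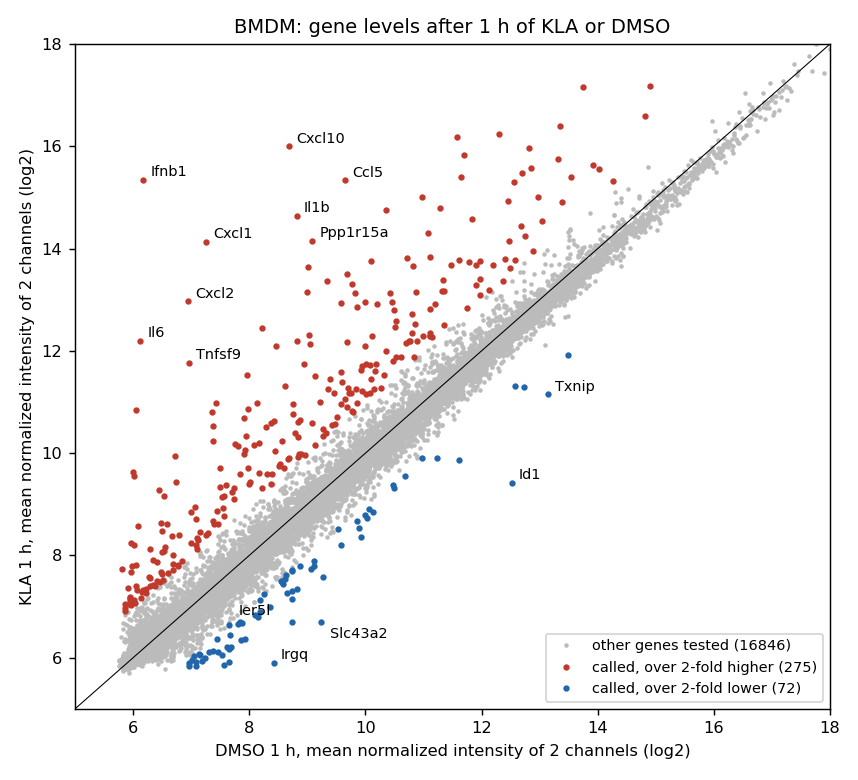
Mean normalized log2 intensity of each gene tested in the 2 DMSO 1 h channels (x axis) against the 2 KLA 1 h channels (y axis), with the diagonal of equal level. The 275 genes called over 2-fold higher (red) reach far above the diagonal across all DMSO levels, up to Ifnb1 at 6.17 and 15.34, and the 72 called over 2-fold lower (blue) lie below it, most of them by less than 4-fold, with Id1 at 12.52 and 9.42 the farthest.

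The second DMSO array of BMDM, at 12 h, gives a view of how much control arrays differ. DMSO 12 h against DMSO 1 h gave 4006 calls, of which 105 were over 2-fold and 3 over 4-fold, and time and array cannot be told apart in it. With DMSO 12 h as the control in place of DMSO 1 h, a choice made after seeing the data, 361 genes (2.10%) were over 2-fold higher and 161 (0.936%) over 2-fold lower. All 275 increases kept their direction there, 253 of them called over 2-fold. The decreases held less: 61 of 72 kept their direction and 45 were called over 2-fold. Where array means were the samples and both DMSO arrays were the control, with 2 residual degrees of freedom, 200 genes (1.16%) were called higher and 41 (0.239%) lower, among them 161 of the 275, 73 of the 96 over 4-fold and 21 of the 72. The list counts below are from the main fit. Among 25 inflammatory cytokines array means called 8 higher, among 16 NF-kappaB genes 7 and among 57 interferon-stimulated genes 5. Of 17 CC chemokines they called 2 higher, of 27 regulators of mRNA decay 2. Of 39 growth factors, coagulation proteins and matrix proteases they called 4 higher. A gene named below without an array-means result was not necessarily called by that fit.

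Of 25 inflammatory cytokines tested, 16 were called higher, beside 11.0% of all genes, 12 of these over 2-fold, beside 1.60%, while 1 was lower and 8 did not pass, with a median log2 change of 0.77 against -0.03 over all genes. The counts of each list below are to be read beside these shares, and beside 17.6% of all genes called lower and 0.419% over 2-fold lower. The lists were drawn up with earlier results of these data known, so a count above these shares describes the list and adds no separate support. Il6, which drives the acute phase response, had log2 levels of 6.12 and 6.13 in the DMSO channels (Cy5, then Cy3, as in all pairs below) and 12.19 and 12.20 under KLA, at least 67.2-fold higher (SE 0.06 on the log2 scale, adjusted p = 3.6e-21 by limma). Il1b, the pyrogen released after inflammasome cleavage, went from 8.79 and 8.84 to 14.67 and 14.62, a log2 change of 5.83 (SE 0.08, adjusted p = 4.9e-19). Il1a, its relative that also acts as an alarmin, went from 6.02 and 6.09 to 11.00 and 10.70, at least 27.4-fold, with probes of the gene from 3.84 to 4.79. In all 3 the KLA channels lay far above the DMSO channels, and the channels of one treatment lay close together. Tnf already had a level of 12.27 and 12.32 under DMSO and reached 16.16 and 16.32, a log2 change of 3.95 (SE 0.08). Array means left Tnf just outside the threshold (adjusted p = 0.053 by limma). Il12b, a subunit of IL-12 and IL-23, rose at least 11.8-fold and the restraining cytokine Il10 by 2.23 on the log2 scale. Among growth factors for myeloid cells, Csf3 rose at least 4.40-fold, Csf2 at least 3.05-fold and Csf1, which encodes M-CSF, by 1.60 (log2), and Osm (oncostatin M) rose by 2.06.

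Chemokines held several of the largest increases beside members that did not pass. Of 13 CXC chemokines tested 6 were higher, 5 over 2-fold, and none was lower, and the list's median log2 change was 0.17. Cxcl10, which attracts activated T cells, went from 8.97 and 8.39 to 16.22 and 15.78, a log2 change of 7.32 (SE 0.17, adjusted p = 2.6e-16 by limma), with the channels of each treatment further apart than for most members. Cxcl1 went from 7.23 and 7.29 to 14.30 and 13.96 (log2 change 6.87, SE 0.15). Cxcl2 went from 6.93 and 6.95 to 13.06 and 12.88 (log2 change 6.02, SE 0.09). Both attract neutrophils, as does Cxcl3, which rose at least 5.52-fold. Cxcl11, a ligand of the same receptor as Cxcl10, rose at least 4.47-fold, whereas Cxcl9, the remaining ligand of that receptor, had a log2 change of 0.17 and did not pass (adjusted p = 0.22 by limma).

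Among 17 CC chemokines 8 were higher, 6 over 2-fold, and 1 was lower. Ccl5 (RANTES) went from 9.61 and 9.67 to 15.26 and 15.40, a log2 change of 5.69 (SE 0.14, adjusted p = 4.0e-16 by limma). Ccl4 and Ccl3, which attract monocytes and lymphocytes, had DMSO levels of 13.70 and 13.79 and of 12.91 and 12.71, and rose by 3.42 and 3.15. The monocyte attractants Ccl7, Ccl12 and Ccl2 rose by 2.73, 2.51 and 2.26 (log2). Array means did not call Ccl3, Ccl7, Ccl12 or Ccl2. The decoy-like chemokine receptor gene Ccrl2, from the list of 43 interleukin, growth factor and chemokine receptors (8 higher, 8 lower), went from 9.03 and 8.99 to 13.62 and 13.66 (log2 change 4.63) and was the only member of that list over 2-fold.

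Interferon beta had the largest increase of the genes tested. Ifnb1 was at 6.23 and 6.12 under DMSO, where it was not well above background in either channel, and at 15.44 and 15.23 under KLA, at least 575-fold higher (SE 0.10 on the log2 scale, adjusted p = 3.6e-21 by limma, 0.00025 with array means). Ifna12 and Ifna5 rose by 1.55 and 1.15 (log2), and probes of this multigene family may share targets. Of 18 type I interferons and interferon regulatory factors, 9 were higher and 2 lower. Irf1, a factor induced early by both NF-kappaB and interferon, went from 12.55 and 12.57 to 15.28 and 15.31 (log2 change 2.74, SE 0.07). Irf7, which amplifies interferon alpha production, had a log2 change of -0.11 and did not pass, and Irf8 fell by 0.53.

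Interferon-stimulated genes were divided at 1 h: 22 of 57 were higher, 14 of them over 2-fold, 5 were lower and 30 did not pass, with a median log2 change of 0.16. Ifit1, which binds RNA that lacks host cap methylation, went from 9.79 and 9.56 to 13.55 and 13.45 (log2 change 3.82, SE 0.12, adjusted p = 1.3e-14 by limma). Gbp5, Rsad2 (viperin), Mx2 and Oasl1 rose by 3.55, 3.52, 3.38 and 3.11 and Isg15 by 2.16. Gbp4 and Cxcl9, also interferon targets, had log2 changes of -0.003 and 0.17 and did not pass.

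The NF-kappaB family and its inhibitors had the highest median of the lists, 0.95 on the log2 scale, with 11 of 16 higher, 7 over 2-fold, and 2 lower. Its 3 largest changes were those of inhibitor family members. Nfkbiz (IkappaB zeta), a nuclear regulator needed for part of the cytokine genes, went from 11.04 and 11.13 to 14.40 and 14.21 (log2 change 3.22, SE 0.08). Nfkbia and Nfkbie, which hold NF-kappaB in the cytoplasm, rose by 3.04 and 2.95. Of the subunits, Rel rose by 1.57, Relb by 0.98, Nfkb1 by 0.91 and Rela by 0.76.

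Of 31 AP-1, EGR and SRF-type early factors 19 were higher, 9 over 2-fold, and 2 were lower. Egr2 went from 8.96 and 9.02 to 13.22 and 13.06, a log2 change of 4.15 (SE 0.07, adjusted p = 2.5e-18 by limma). Egr1 went from 9.39 and 9.28 to 13.45 and 13.27 (log2 change 4.03), and Csrnp1, a nuclear protein of the early response, from 10.86 and 11.09 to 14.93 and 15.09, with its 3 probes from 1.89 to 4.03. The small Maf protein gene Maff rose by 3.53 and Junb by 1.78. Fos and Jun, the classical AP-1 pair, rose only by 0.45 and 0.28 and were not called with array means.

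Other families of transcription factors held few changes over 2-fold. Of 25 nuclear receptors 4 were higher and 2 lower (16% and 8%, beside 11.0% and 17.6% of all genes), with Nr4a1 (log2 change 1.49) the only one over 2-fold, and its change was 3.38 against DMSO 12 h. Among 14 Kruppel-like factors Klf6 and Klf7 rose by 1.72 and 1.35 and Klf10 fell by 1.26, a direction that turned (0.31) against DMSO 12 h. Of 32 further macrophage factors 10 were higher and 10 lower, 3 and 2 of these over 2-fold, with Myc and its antagonist Mxd1, both partners of MAX, up by 1.21 and 1.91 and the myeloid factor Cebpa down (-0.98). Kdm6b, which removes methyl groups from lysine 27 of histone H3, went from 9.13 and 8.95 to 12.24 and 12.03 (8.55-fold, SE 0.13 on the log2 scale), and no other of the 31 chromatin factors passed 2-fold. Elongation factors gave 4 higher and 4 lower of 22 (18.2% each, beside 11.0% and 17.6% of all genes) with none over 2-fold. Among them were Ell2 (0.44) and Aff4 (0.49), of the super elongation complex, and Cdk9 (-0.34, and -0.16 against DMSO 12 h), the kinase of P-TEFb. The probes of Aff4 ran from -0.07 to 0.49, and array means did not call it (adjusted p = 0.34 by limma).

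Some genes of negative feedback were among the large increases, while most members of their lists did not pass. Tnfaip3 (A20), which edits ubiquitin chains on TLR and TNF receptor signalling proteins, went from 10.34 and 10.37 to 14.68 and 14.83, a log2 change of 4.40 (SE 0.07, adjusted p = 6.6e-19 by limma). It led a list of 23 brakes of TLR signalling in which 8 were higher, 5 over 2-fold, 3 were lower and 12 did not pass (median log2 change 0.09), with Traf1 at 3.35 and Peli1, a ubiquitin ligase, at 1.92. Of 20 genes of cytokine feedback, Socs3 and Cish, which limit STAT signalling, stood out. Socs3 went from 11.55 and 11.84 to 15.76 and 15.90 (log2 change 4.13), Cish from 7.31 and 7.42 to 10.75 and 10.86 (3.44), whereas Socs1 rose by 0.85. In that list 6 were higher, 2 were lower and 12 did not pass (median 0.05).

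Of 17 MAP kinase phosphatases 9 were higher, 4 over 2-fold, and 2 were lower. Dusp2, active on ERK and p38, went from 11.70 and 11.59 to 15.52 and 15.28 (log2 change 3.75) and Dusp1 from 11.96 and 11.71 to 14.75 and 14.39 (2.74), while Dusp6, which acts on ERK, fell by 0.98 (log2). Regulators of mRNA decay gave 10 higher, 5 over 2-fold, and 3 lower of 27. Zfp36 (tristetraprolin), which destabilises cytokine mRNAs through AU-rich elements, rose by 2.84, Zc3h12c by 2.81, Btg2 by 2.19 (by 1.42 against DMSO 12 h), Noct, a deadenylase relative, by 1.82 and Zc3h12a (regnase-1) by 1.78. Btg2 was not called with array means (adjusted p = 0.18 by limma).

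Of 22 pattern recognition receptors and co-receptors 7 were higher, 5 over 2-fold, and none was lower. Clec4e (Mincle), a receptor for mycobacterial glycolipid, went from 10.15 and 10.02 to 13.85 and 13.67 (log2 change 3.68). Tlr2 went from 12.39 and 12.50 to 14.94 and 14.90 (2.47), Nod2, which senses muramyl dipeptide, from 7.86 and 8.03 to 10.30 and 10.39 (2.40), and Cd14 rose by 1.53. Cd14 was not called with array means (adjusted p = 0.20 by limma). Tlr4 itself had a log2 change of 0.17 and did not pass (adjusted p = 0.059 by limma). Among 27 adaptors and kinases 8 were higher and 7 lower. Ripk2, the kinase downstream of Nod2, rose by 1.14 and was the only one over 2-fold, Ticam1 (TRIF) rose by 0.96, Tirap fell by 0.67 and Myd88 had a log2 change of -0.02 with no call.

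Several molecules for contact with T cells and endothelium were higher beside members that did not pass. Of 27 TNF receptor and ligand superfamily genes 12 were higher, 1 was lower and 14 did not pass (median log2 change 0.07), led by Tnfsf9 (4-1BB ligand), a costimulator of T cells, which went from 6.95 and 6.97 to 11.85 and 11.68 (log2 change 4.80, SE 0.07, adjusted p = 6.6e-19 by limma). Cd40 went from 7.97 and 7.99 to 10.82 and 10.91 (2.89). Among 33 costimulation and adhesion genes 14 were higher, 7 over 2-fold, 2 were lower and 17 did not pass (median 0.09). Cd69, an early activation marker, rose by 3.55, Cd83 by 2.78 and the endothelial-type adhesion molecules Vcam1 and Icam1 by 2.03 and 2.02. MHC class II and presentation genes gave 1 call in each direction of 18, the increase being Cd74, the invariant chain (1.10). Cd74 was not called with array means (adjusted p = 0.18 by limma). Of 41 G protein-coupled receptors and RGS proteins 16 were higher and 9 lower, with the medium-chain fatty acid receptor Gpr84 at 3.01, the prostaglandin E2 receptor Ptger4 at 1.74 and the niacin receptor Hcar2 at 1.59.

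Genes of survival and stress responses moved both ways, 21 higher and 7 lower of 40, with 13 over 2-fold higher and 2 over 2-fold lower. Pim1, a survival kinase, rose by 2.78 (its other probe by 0.90), Phlda1 by 2.72, Ier3 by 2.37, Gadd45b by 2.21 and Cflar, the inhibitor of caspase 8, by 1.66. The pro-apoptotic Bmf fell by 1.42 and Gadd45g by 1.56, the latter by 0.64 against DMSO 12 h and without a call with array means (adjusted p = 0.31 by limma). Ppp1r15a (GADD34), which directs the phosphatase that reverses the block of translation in stress, was among the 20 largest increases and went from 8.93 and 9.23 to 13.89 and 14.42 (log2 change 5.08, SE 0.19). Rnd1, a small GTP-binding protein, went from 8.15 and 8.27 to 12.36 and 12.52 (4.23), though its other probe gave 0.96.

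Several enzymes of macrophage effector functions rose. Acod1, which makes itaconate from aconitate, went from 11.58 in both DMSO channels to 16.16 and 16.20, a log2 change of 4.60 (SE 0.08, adjusted p = 8.9e-18 by limma). The list of nitric oxide, arginine and itaconate enzymes held 9 higher and 4 lower of 30. Arg2 rose by 1.70, Gch1, which makes the cofactor of nitric oxide synthase, by 1.09 and mitochondrial Sod2 by 1.06, whereas Nos2 itself was not well above background in any channel (5.95, 6.00, 6.01 and 6.01). Of this list array means called 1 member higher, and Arg2 was not called (adjusted p = 0.14 by limma). Ptgs2 (COX-2) went from 6.70 and 6.78 to 9.55 and 9.33 (2.70), the only one of 18 prostaglandin and leukotriene enzymes over 2-fold. Ch25h, which makes 25-hydroxycholesterol, went from 8.43 and 8.51 to 12.04 and 12.16 (3.63). Its list of 28 LXR targets and sterol genes held 4 higher and 5 lower (14.3% and 17.9%, beside 11.0% and 17.6% of all genes). Of 30 glycolysis and hypoxia genes 3 were higher and 9 lower, with the transporter Slc2a6 up by 2.71 and Pgk1 down (-0.51, and -0.24 against DMSO 12 h). Of 39 growth factors, coagulation proteins and matrix proteases 26 were higher and 6 lower, 8 of the former over 2-fold, with Serpinb2 (PAI-2) at 2.33, the collagenase Mmp13 at 2.28 and, at least 3.29-fold and 3.34-fold, endothelin (Edn1) and tissue factor (F3).

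**Figure D2:**
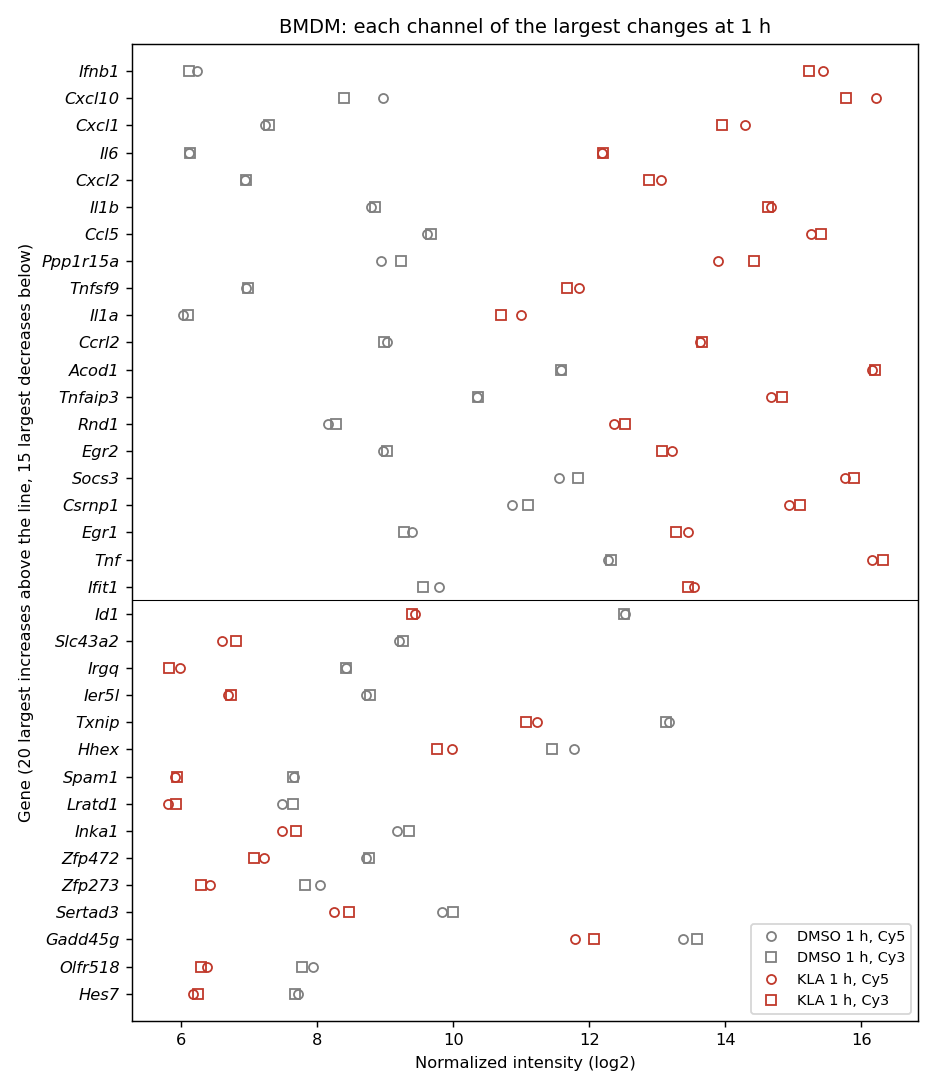
Normalized log2 intensity (x axis) in each of the 4 channels for the 20 largest increases and, below the line, the 15 largest decreases, with DMSO in grey, KLA in red, Cy5 as circles and Cy3 as squares. Within a treatment the channels lie close together against the gap between treatments, from Ifnb1 (log2 change of at least 9.17) to Ifit1 (3.82) above the line and from Id1 (-3.10) to Hes7 (-1.48) below it. The genes shown were chosen among calls whose channels did not overlap, so that a gap was set by the choice.

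The decreases were smaller than the increases. Id1, an inhibitor of basic helix-loop-helix factors, was at 12.52 in both DMSO channels and at 9.44 and 9.39 under KLA, a log2 change of -3.10 (SE 0.06, adjusted p = 1.1e-17 by limma). It was at 10.51 on the DMSO 12 h array, against which the change was -1.10, and array means did not call it (adjusted p = 0.35 by limma). Slc43a2, an amino acid transporter, went from 9.21 and 9.26 to 6.59 and 6.80, a change of -2.54 and of -2.32 against DMSO 12 h, with its other probe at -0.68, and array means did not call it (adjusted p = 0.18 by limma). Txnip, the thioredoxin inhibitor that also limits glucose uptake, went from 13.17 and 13.12 to 11.23 and 11.06 (-2.00, and -1.87 against DMSO 12 h), and array means called it (adjusted p = 0.011 by limma). These 2 decreases were of like size against either control array, unlike that of Id1. The probe used for Irgq gave at least 4.99-fold lower, and the gene's other probe 0.45. Ier5l and the homeobox gene Hhex had log2 changes of -2.04 and -1.74, and of -0.85 and -1.19 against DMSO 12 h. Their other probes gave -0.86 and -1.02 against DMSO 1 h. Neither Ier5l nor Hhex was called with array means (adjusted p = 0.29 and 0.12 by limma).

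Other large decreases rested on the DMSO 1 h array. Spam1 was at 7.66 and 7.64 under DMSO and at 5.91 and 5.93 under KLA, but at 5.85 on the DMSO 12 h array, and Lratd1 and Olfr518 gave log2 differences of 0.035 and 0.018 against DMSO 12 h in place of -1.70 and -1.51. Hes7 fell by 1.48 against DMSO 1 h and by 0.19 against DMSO 12 h. Of the 18 decreases that were not well above background under KLA, 15 were not under DMSO 12 h either. Inka1, Zfp472, Zfp273 and Sertad3, by contrast, had changes of -1.68, -1.60, -1.57 and -1.56 against DMSO 1 h and of -1.46, -1.48, -1.56 and -1.38 against DMSO 12 h. Array means called Inka1, Zfp472 and Zfp273 but not Sertad3 (adjusted p = 0.12 by limma). The 3 probes of Zfp273 ran from -1.57 to -0.32 against DMSO 1 h.

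Genes named Zfp, most of which encode C2H2 zinc finger proteins, were lower in 163 of 294 cases and higher in 20, beside 17.6% and 11.0% of all genes, with a median log2 change of -0.25. Of these, 13 were over 2-fold lower and 2 over 2-fold higher, the latter Zfp36 (2.84), which is the mRNA decay factor above, and Zfp93 (1.31). With array means 14 were called lower and 0 higher, and with the authors' values 136 and 17. Zfp472 went from 8.72 and 8.76 to 7.21 and 7.07 and Zfp273, by the probe used, from 8.04 and 7.82 to 6.42 and 6.29.

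Cell cycle and DNA replication genes were lower in 23 of 42 cases and higher in 2, with a median of -0.23 and none over 2-fold. Ccnd1 and E2f2 both changed by -0.69 and Ccnd3 by -0.54, and the inhibitor gene Cdkn1a rose by 0.47. Of the housekeeping lists, 12 of 31 proteasome subunits, 13 of 83 ribosomal proteins and 18 of 80 oxidative phosphorylation subunits were lower and 0, 2 and 1 higher, with medians of -0.14, -0.11 and -0.12. Beside the 17.6% of all genes called lower, these were 38.7%, 15.7% and 22.5% of the members. With the authors' values these last 3 medians were -0.02, -0.002 and -0.01, and 3, 1 and 5 members were called lower, and array means called none of the 4 lists' members. Scavenger and phagocytic receptors gave 9 lower and 3 higher of 40 (22.5% and 7.5%, beside 17.6% and 11.0% of all genes), with Fcgr3 at -0.58 and the inhibitory Fcgr2b at 0.81.

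**Figure D3:**
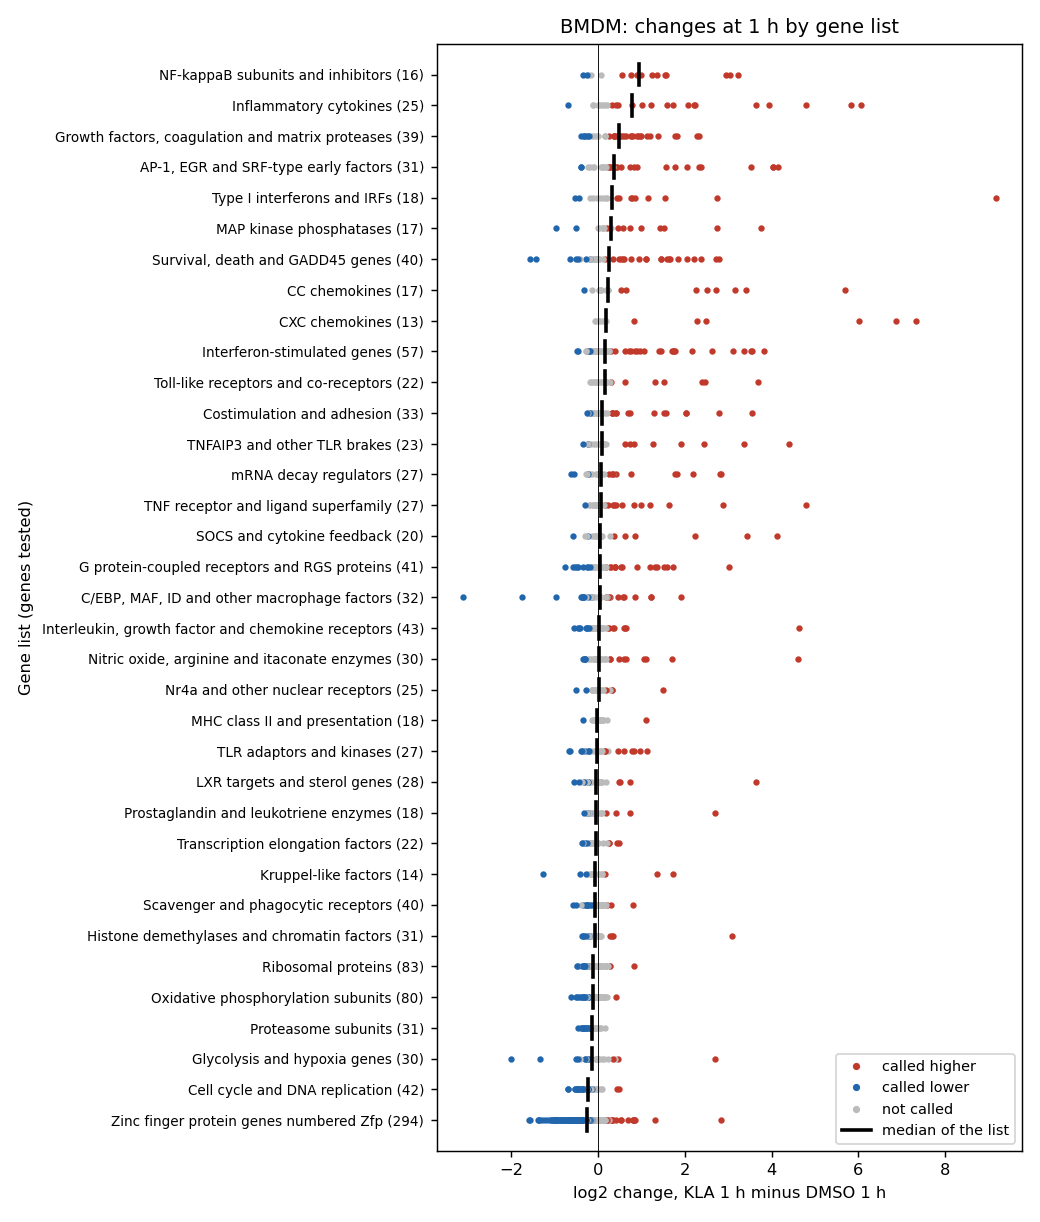
Log2 change (KLA 1 h minus DMSO 1 h, x axis) of each tested member of the gene lists by function, with the number tested in parentheses, calls in red (higher) and blue (lower), genes not called in grey and the list's median as a bar. Medians run from 0.95 for NF-kappaB subunits and inhibitors to -0.25 for the Zfp genes, and in many lists single members at 2 or more stand far to the right of a median near 0.

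Beside the immune lists, 2 markers of other cells moved more than the rest of their lists: Zbtb46, a factor of dendritic cells, went from 7.10 and 7.06 to 8.71 and 8.69 and Gata2, of mast cells and basophils, from 6.73 and 6.64 to 8.11 and 7.91. The other 6 dendritic cell markers tested gave 1 call, Batf3 at -0.37, and the other 7 markers of mast cells, basophils and eosinophils gave 1, Il4 at 0.18, which turned to -0.06 against DMSO 12 h. Array means did not call Gata2 (adjusted p = 0.090 by limma).

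The response of BMDM at 12 h was set against that at 1 h within the slide, with each time's own DMSO array. The difference between the 2 responses passed for 9377 of 17188 genes, 4224 (24.6%) higher at 12 h and 5153 (30.0%) lower, and 306 of the 347 genes over 2-fold changed at 1 h were among them. Of the 275 increases, which were chosen by their response at 1 h, 149 were over 2-fold higher at both times. The share of all genes over 2-fold higher at 12 h is not given here. The median response of the 275 at 12 h was 1.21, beside -0.03 over all genes. Among the genes with the largest differences, Cxcl1 had a response of 1.97 at 12 h (difference -4.90), Ppp1r15a of 0.78 (-4.30), Tnfsf9 of 0.64 (-4.17) and Egr2 of -0.56 (-4.72). Ifnb1 was at 15.34 after KLA for 1 h and at 10.46 after 12 h, and since it was well above background in neither DMSO 1 h channel and in 1 of the 2 DMSO 12 h channels, no exact difference of responses is given for it here. Tlr2 and Cish, up by 2.47 and 3.44 at 1 h, were at -0.49 and -0.38. Other responses were as large or larger at 12 h, with Socs3 at 4.13 and 4.09 (adjusted p of the difference 0.83 by limma), Gpr84 at 3.01 and 3.03, Ccl5 at 5.69 and 8.16 and Ccl12 at 2.51 and 6.20.

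At 12 h the interferon-stimulated list had a median response of 2.75 against 0.16 at 1 h. Genes that did not pass at 1 h stood among the largest differences, with Cxcl9, which was not well above background in any channel of the 2 DMSO arrays, at 7.69 (difference 7.52), Gbp4 at 6.37 (6.38), Serpina3g at 7.03 (7.06) and LOC667373, a gene model named in the reference only by its number, at 8.53 (8.47). Isg20, an exonuclease, was at 0.29 at 1 h and 6.62 at 12 h (difference 6.33). The cell cycle list went from a median of -0.23 to -1.96 and the ribosomal proteins from -0.11 to -0.93. Of the 72 decreases, also chosen at 1 h, 11 were over 2-fold lower at both times, with a median response of -0.34 at 12 h. The share of all genes over 2-fold lower at 12 h is likewise not given. Gadd45g and Sertad3 had turned, to 2.05 and 1.77, and Bmf fell at both times (-1.42 and -2.24). With array means both DMSO arrays were 1 shared control, which drops out, so that KLA 12 h was set against KLA 1 h directly. Change with time in culture alone enters this comparison, which is not the difference of responses above. It passed for 4055 genes, and all 10 genes named by size of the difference were among them.

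**Figure D4:**
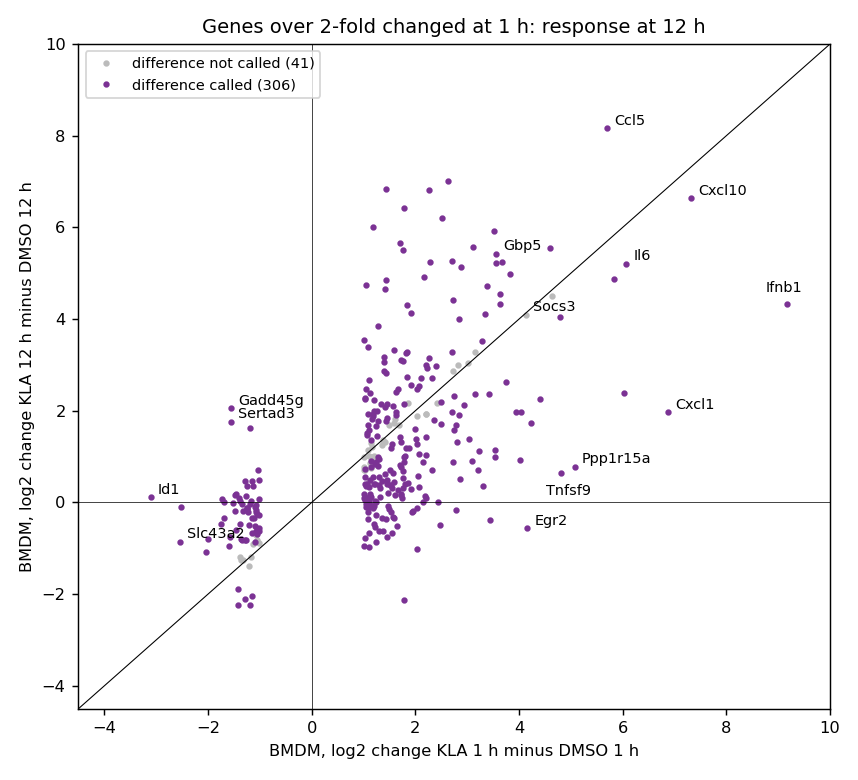
Log2 response of BMDM to KLA at 1 h (x axis) and at 12 h (y axis), each against its own DMSO array, for the 347 genes called over 2-fold at 1 h, with the diagonal of equal response and genes whose difference passed in purple (306) or did not in grey (41). Egr2, Tnfsf9 and Ppp1r15a lie near 0 at 12 h, Ccl5 lies above the diagonal, and Sertad3 and Gadd45g lie above 0 at 12 h after a decrease at 1 h.

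The 1 h response of EPM was set against that of BMDM. The controls were labelled untreated for EPM and DMSO for BMDM, and the cell types lay on different slides, so that these 3 factors cannot be told apart. The difference between responses passed for 1642 of 17191 genes, 946 (5.50%) more positive in BMDM and 696 (4.05%) more negative, and for 3079 with the dye as a block. With array means it passed for 0 genes (limma, 704 at an unadjusted p under 0.05, smallest adjusted p 0.075, no other tool run). Of the 275 increases, which were chosen by their response in BMDM, 181 were over 2-fold higher in EPM too. The share of all genes over 2-fold higher in EPM is not given here. The median response of the 275 in EPM was 1.45, beside -0.05 over all genes. Larger in BMDM were Ccl5 (5.69 against 2.75, 2.94), Cxcl10 (7.32 against 4.74, 2.58) and Cd69 (3.55 against 1.42, 2.13). The response of Il6 was at least 67.2-fold in BMDM and 3.07 on the log2 scale in EPM, and Il12b, whose controls were not well above background in either cell type, was at 9.64 after KLA in BMDM and at 7.54 in EPM. Larger in EPM were Nfkbiz (3.22 against 6.23, difference -3.01), Tnf (3.95 against 6.73, -2.79), Ccl4 (3.42 against 5.96, -2.54) and Cdk5r1, an activator of Cdk5 (0.90 against 3.77, -2.87).

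For Tnf and Nfkbiz the levels after KLA lay close together in both cell types, and the control levels lay far apart. Tnf was at 12.29 ± 0.03 (SD, n = 2) in DMSO-treated BMDM and 9.61 ± 0.01 in untreated EPM, and at 16.24 ± 0.11 and 16.34 ± 0.04 after KLA. Nfkbiz was at 11.08 ± 0.06 and 8.01 ± 0.03 in the controls and at 14.31 ± 0.14 and 14.24 ± 0.03 after KLA. For Il6, in contrast, the controls were at 6.12 ± 0.01 and 6.55 ± 0.06 and the KLA levels at 12.19 ± 0.01 and 9.62 ± 0.08. Cxcl1, Tnfaip3, Socs3 and Egr1 had responses whose difference did not pass, at 6.87 and 7.24, 4.40 and 4.28, 4.13 and 4.22, and 4.03 and 4.10 in BMDM and EPM. Of the 72 decreases 26 were over 2-fold lower in EPM too, among them Slc43a2 (-2.54 and -2.47), Txnip (-2.00 and -2.54), Sertad3 (-1.56 and -1.86) and Gadd45g (-1.56 and -2.07). The median response of the 72 in EPM was -0.83, and the share of all genes over 2-fold lower in EPM is not given here. By the probe used, Irgq was at least 4.99-fold lower in BMDM and at 0.26 in EPM, while its other probe gave 0.45 in BMDM. Id1 was at -3.10 in BMDM and -1.09 in EPM, but at -1.10 in BMDM against DMSO 12 h.

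**Figure D5:**
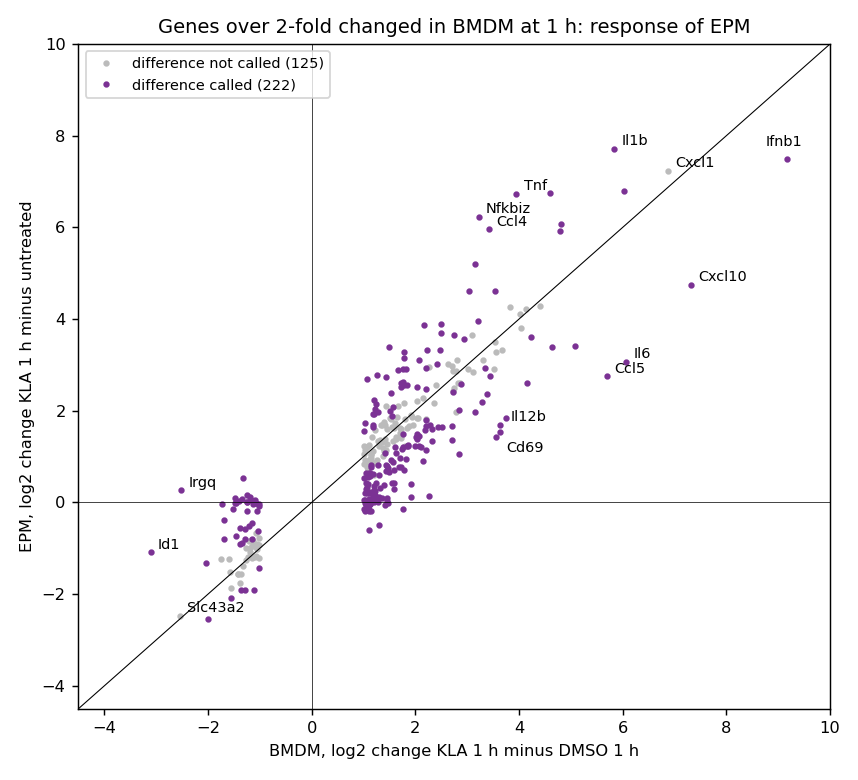
Log2 response to KLA at 1 h in BMDM (x axis, against DMSO) and in EPM (y axis, against untreated) for the 347 genes called over 2-fold in BMDM, with the diagonal of equal response and genes whose difference passed in purple (222) or did not in grey (125). Ifnb1, Cxcl10, Il6 and Ccl5 lie below the diagonal and Tnf, Nfkbiz, Ccl4 and Il1b above it, with Cxcl1 and Slc43a2 close to it.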

How the data were processed

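RNA of 24 samples was measured on 12 Agilent 2-colour arrays, and the 4 channels of BMDM at 1 h are the subject here. The authors deposited scanner files from Feature Extraction 9.5.3.1 with mean, background and processed intensity per spot, and normalized linear intensity values of 38516 probes, whose normalization is not given in the sources used here. Both files of an array held identical values, and Cy5 was read from the red and Cy3 from the green columns. Groups came from the labels.

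Background was removed by normexp with an offset of 50, fitted before control spots were dropped, dyes were balanced by loess and arrays by Aquantile, and log2 values of the single channels were analysed (R 4.3.3, limma 3.58.1, statmod 1.5.0, data.table, version 1.17.8). Outlier spots were set missing (86 values in the 4 channels, none in a gene named) and spots of a probe averaged. Of 41174 probes, 34854 carried 1 of 21331 gene names, 23395 of them through a RefSeq accession and 9614 through a symbol or synonym, and 1845 kept the name in the file. For the 8891 names with several probes, the brightest probe on average stood for the gene. A gene was tested if 1 or more conditions had it well above background in Cy5 and Cy3, with 1 coefficient per condition, all 24 channels, 12 residual degrees of freedom and Benjamini-Hochberg adjustment over all genes (threshold 0.05). Authors' values correlated best with their own channel. The number of arrays and the signal over background limit the precision. The fit was tested on simulated data with independent noise in each channel and no array or dye effect. That test checks the code and cannot show how differences between arrays enter the calls.

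Replicates share only the name of their dye. The gap between Cy5 and Cy3 correlated over genes in every one of 66 array pairs (r from 0.23 to 0.60, and 0.57 for the 2 arrays compared), which pairs channels by dye, and a fit with the dye as a block was made.

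The comparison, gene lists and tests were chosen with earlier results of these data known. Genes named were the 20 largest increases and 15 largest decreases whose channels did not overlap, up to 4 genes of each list, the genes the study names and the 5 largest differences in each direction between responses, and not all are printed. Isg15, Irf7, Zc3h12a, Cdkn1a and some other list members were named for their roles after their values were seen. Alternatives were an offset of 16, the processed signal, quantile or no normalization between arrays, the authors' values, other filters, the mean of probes, RefSeq probes, the dye block, fewer samples in the fit, array means, a threshold of 0.01, a tested minimum of 1.5-fold, centring on all genes, leaving out each replicate and, added later, the DMSO 12 h array as the control.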

Additional observations from a re-analysis of the deposited data

Results flagged for a closer look

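The response of BMDM at 1 h differed from that of EPM in 1642 genes by a limma test of the difference itself, and its 10 largest differences among genes with channels that did not overlap were Il6 (3.00), Ccl5 (2.94), Cxcl10 (2.58), Cd69 (2.13) and Il12b (2.10), larger in BMDM, and Nfkbiz (-3.01), Cdk5r1 (-2.87), Tnf (-2.79), Irgq (-2.78) and Ccl4 (-2.54), larger in EPM or, for Irgq, lower in BMDM by 1 of its 2 probes (log2, BMDM minus EPM). Slide, solvent and cell type cannot be told apart in these values, and array means called 0 of them. Il6 and Il12b were not well above background in the DMSO channels of BMDM, nor Il12b in untreated EPM, nor Irgq in the KLA channels of BMDM, so that these 3 differences are of fitted values.

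The response of BMDM differed between 12 h and 1 h in 9377 genes by the same kind of test. The largest differences (log2, 12 h minus 1 h) were those of LOC667373 (8.47), Cxcl9 (7.52), Serpina3g (7.06), Gbp4 (6.38) and Isg20 (6.33), larger at 12 h, and of Cxcl1 (-4.90), Ifnb1 (-4.85), Egr2 (-4.72), Ppp1r15a (-4.30) and Tnfsf9 (-4.17), larger at 1 h. Ifnb1 at DMSO 1 h and Cxcl9 on both DMSO arrays were not well above background in either channel, and their differences are likewise of fitted values.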

How the results depend on the processing

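The spread between channels does not hold differences between arrays, and a fit on array means moved most counts. It made 3 changes together, with array means as the samples, both control arrays of a cell type as the control and macrophage arrays only: 241 genes were called at 1 h, 163 over 2-fold higher and 27 over 2-fold lower, and 0 differed from EPM (704 at an unadjusted p under 0.05). Between times the shared control drops out, so that KLA 12 h was set against KLA 1 h directly, and 4055 genes differed. Of 241 genes named or shown in lists, not all of which were called in the main fit, 136 lost their call with array means with their direction kept, and Col1a1 lost it and turned. An offset of 16 gave 158 genes over 2-fold lower, and the processed signal 674 over 2-fold higher and 502 over 2-fold lower. Detection in all channels compared left 1016 differences from EPM, and the dye as a replicate block gave 3079 and, at 1 h, 6847 calls. At an adjusted p under 0.01, 3269 genes were called at 1 h and 995 differed from EPM, and with a tested minimum of 1.5-fold 444 were called, 163 differed from EPM and 2870 between times. With DMSO 12 h as the control, 161 genes were over 2-fold lower. Leaving out 1 replicate gave 3356 to 3911 calls at 1 h, 273 to 282 over 2-fold higher, 74 to 85 over 2-fold lower, 1141 to 1462 differences from EPM and 8661 to 8794 between times. The causes of these shifts were not tested, apart from the fewer samples, fewer genes or stricter thresholds named.

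The direction turned for B2m (0.18) and Rarg (-0.0016) with the mean of probes, for Col1a1 (-0.00052) with array means and, against DMSO 12 h, for Cd3g (-0.060), Col1a1 (-0.29), Col1a2 (-0.19), Il4 (-0.062), Klf10 (0.31), Lratd1 (0.035), Olfr518 (0.018), Scd2 (0.014) and Spam1 (0.071). All 275 and 72 genes over 2-fold were called under an offset of 16, the processed signal, quantile or no normalization between arrays, centring, the mean of probes and the dye block, and 259 and 70 with the authors' values.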
